A study of Caenorhabditis elegans with 8 samples.

Results

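The body-shape collagens are cuticle collagens of the nematode Caenorhabditis elegans whose genes were named after mutants with a changed body form: short and fat (dpy, dumpy), twisted (rol, roller), squat (sqt) or blistered (bli). The members were the genes dpy-2, dpy-3, dpy-7, dpy-8, dpy-13, dpy-17, sqt-3, rol-6, bli-1 and bli-2, chosen by name. They are 10 of the 17118 genes measured and are read by 13 of the 22548 probe sets of the Affymetrix C. elegans GeneChip; dpy-2, sqt-3 and bli-1 have 2 probe sets each. The rule used names, not measured values, but the members were chosen with earlier results of these data known.

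All 8 arrays came from strain JK1107, which carries glp-1(q224) on chromosome III, a temperature-sensitive allele that leaves adults raised at 25°C without a proliferating germ line. There were 3 pools of mixed-stage embryos, about 5000 eggs each, taken with bleach and sodium hydroxide from parents kept at 15°C. The 3 pools of young adults (day 1, 24 hours past the L4 larval stage) and 2 pools of aging adults (day 6) held about 3000 to 5000 animals each, were hatched at 20°C, raised at 25°C, and, for the aging adults, washed to fresh plates every 2 days. Embryos and adults thus differed in temperature as well as in stage, and the 2 cannot be told apart; nor can fewer cells of a type and less RNA per cell, since whole animals were extracted. The labels number the arrays as replicates and do not say which pools shared parents or days, so p values measure the spread between these pools.

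The cuticle is the collagenous exoskeleton that the epidermis secretes anew at the end of embryogenesis and before each moult. Collagen chains are hydroxylated and folded in the secretory pathway, cut by proteases, assembled into layers and cross-linked by tyrosine bonds. DPY-2, DPY-3, DPY-7 and DPY-8 belong to the furrow collagens, which form the circumferential furrows between the ridges called annuli; DPY-13 is an annular collagen. SQT-3 and DPY-17 act together and are processed by the protease DPY-31, a dominant form of ROL-6 is a widely used marker that makes worms roll, and BLI-1 and BLI-2 build the struts that span the fluid layer of the adult cuticle. In larvae, transcripts of many cuticle collagen genes come in waves that return with the moult cycle, not all in the same part of it, and adults no longer moult.

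Values are given as deposited intensities, which are linear, background-subtracted and can be negative. Negative readings gave each array its noise level (95% of them lay nearer to 0 than this), between 24.4 and 35.0, and readings at or below it are called below noise. The test was limma on log2 values divided by the array median, with p adjusted over all genes by the Benjamini-Hochberg method and called at 0.05. Folds were taken from the difference in group means of these log2 values (for the members of 1 probe set, for the genes of related lists of the median over their probe sets), and where no array of the lower group was above noise they are bounds against the noise level, written "at least". The test used intensities with a floor of 0.01, so a p beside a bound belongs to the floored values and does not test the bound. Where all readings of a group were negative, its spread in the test is only that of the array medians. Embryo arrays had 58.7 to 60.8% of their probe sets above noise, aging adult arrays 51.1 to 51.3% and young adult arrays 41.4 to 45.1%, and the array medians differed in the same order (56.2 to 64.2, 32.4 to 36.9 and 19.1 to 21.9). The choice of scale therefore moves every fold: without rescaling, the median log2 change over all genes went from -0.01 to 0.74 for aging against young adults, from -0.38 to 1.19 for embryos against young adults and from -0.45 to 0.37 for embryos against aging adults. Germ line and oocyte markers were above noise on all embryo arrays for 6 of 6 genes, and 0 of 6 were above noise on any young adult array. In aging adults 5 of 6 were above noise on no array, and the sixth, glh-1, was above it on both. Intestine (5 of 5) and body wall muscle markers (4 of 4) were above noise on every array.

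Of the 10 members, limma called 5 lower in aging than in young adults (dpy-2, dpy-7, dpy-13, sqt-3 and rol-6) and 0 higher; an unadjusted p under 0.05 was reached by 6 lower ones and 0 higher ones. Over all 17118 genes, 4.44% were called lower and 2.74% higher. Only 6 members were measurable, that is, had 2 or more arrays above noise in these groups, and among the 8766 genes with such readings 7.37% were called lower and 3.7% higher. Embryos against young adults gave 5 members higher (dpy-2, dpy-3, dpy-7, dpy-17 and sqt-3) and 3 lower (dpy-8, dpy-13 and rol-6), against 22.5% and 31.2% of all genes (33.3% and 35.4% of the 10894 with 2 or more arrays above noise, where 7 members stood). The calls of dpy-2 and sqt-3 rest on medians of 2 probe sets that disagreed. For sqt-3 both passed, in opposite directions (log2 3.54 and -1.1). For dpy-2, 184162_at alone did not pass (adjusted p = 0.118, limma), and 173355_s_at was below noise in young adults. Embryos against aging adults gave 6 higher (dpy-2, dpy-3, dpy-7, dpy-13, dpy-17 and sqt-3) and 0 lower (at an unadjusted p under 0.05, 6 higher and 1 lower), against 17.8% and 27.1% of all genes (25.5% and 33.3% of the 11045 with such readings). These comparisons share arrays with each other. With every value raised to the noise level of its array, the median log2 change of the measurable members was -2.51, 1.60 and 4.53 in the 3 comparisons, beside -0.07, -0.44 and -0.27 for all genes with such readings.

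**Figure D1:**
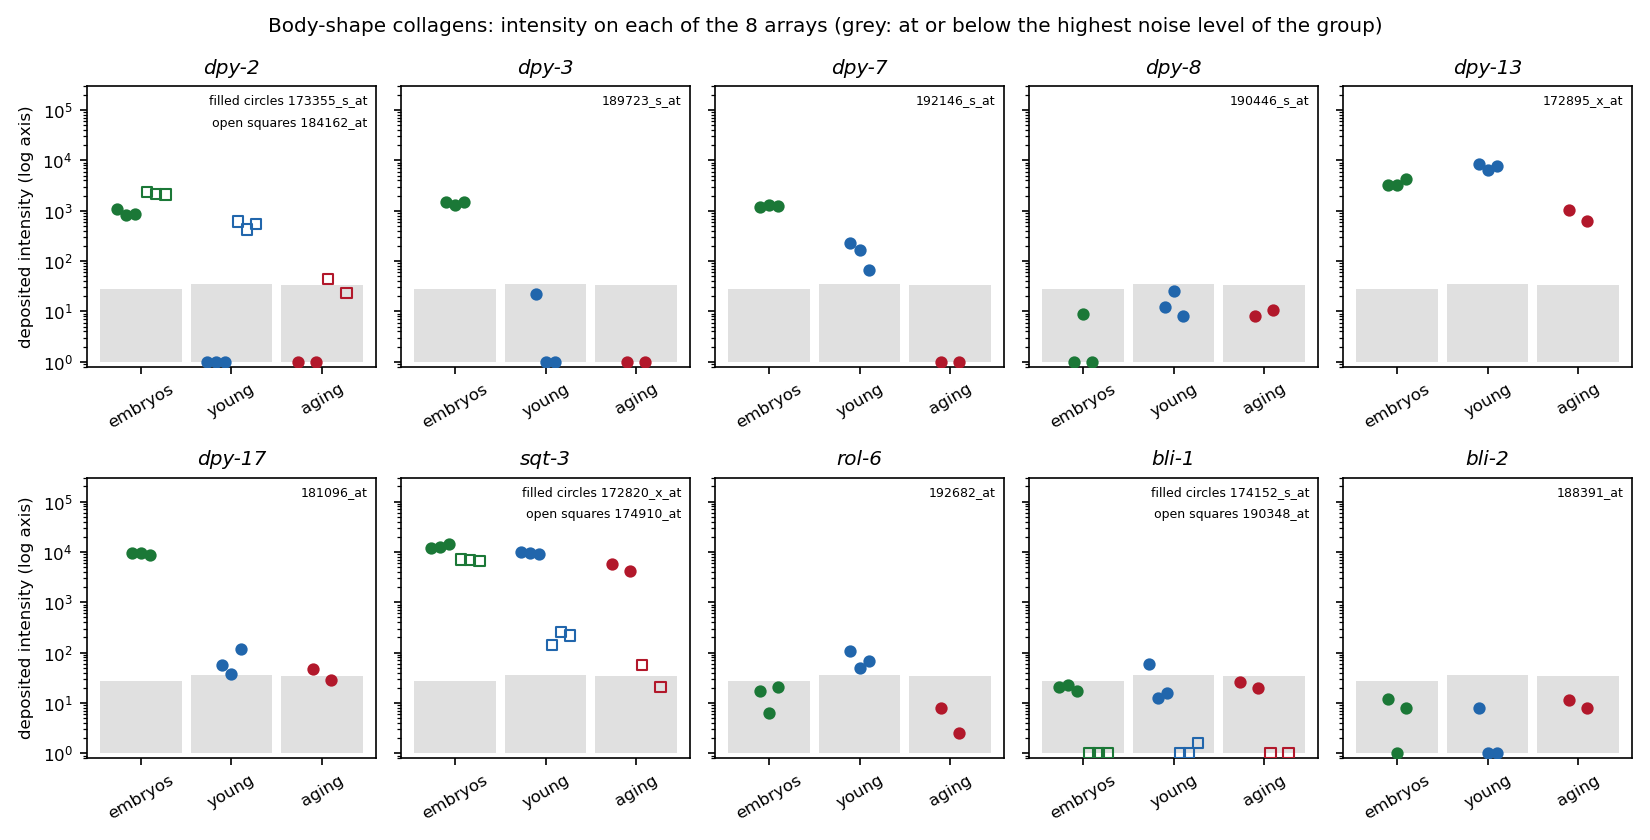
Deposited intensity (log axis) of each member on each array, by group (embryos, young and aging adults); every point is 1 array, and values under 1 are drawn at 1. Grey marks intensities up to the highest noise level of the group; dpy-17 stands at 8675 to 9606 in embryos and at 27.9 to 119.6 in adults, while dpy-8, bli-2 and all but 1 reading of bli-1 lie in the grey.

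Among the furrow collagens, dpy-2, dpy-3 and dpy-7 were high in embryos and low or below noise in aging adults, and they differed in young adults. The gene dpy-7 (F46C8.6, chromosome X), whose promoter is a common tool for expression in the epidermis, read 1179, 1277 and 1222 in embryos, 231.0, 167.8 and 66.2 in young adults and -36.3 and -39.8 in aging adults. The 3 groups did not overlap, and both aging arrays were below noise. It was 3.03-fold higher in embryos than in young adults (log2 fold change 1.60, SE 0.52, adjusted p = 0.0377, n = 3 and 3, limma over probe sets). That call rests on few arrays: the adjusted p was 0.123, 0.115 and 0.104 without embryo replicate 1, 2 or 3, and 0.0677 without young adult replicate 2. Young adults were at least 7.27-fold above aging adults (adjusted p = 0.000388, n = 3 and 2, limma), and embryos at least 22.0-fold above them (adjusted p = 9.7e-06).

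The furrow collagen gene dpy-3 (EGAP7.1, chromosome X) read 1475, 1303 and 1504 in embryos. In young adults it read 22.5, -50.0 and -104.3 and in aging adults -12.7 and -6.9, so that all 5 adult arrays were below noise. Embryos were at least 15.5-fold above young adults (adjusted p = 0.0146, n = 3 and 3, limma) and at least 25.6-fold above aging adults (adjusted p = 0.00795, n = 3 and 2). No difference between young and aging adults was detectable for dpy-3 at this noise level.

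The 2 probe sets of dpy-2 (T14B4.6, chromosome II) disagreed in young adults. Probe set 184162_at read 2348, 2185 and 2102 in embryos, 610.0, 425.5 and 554.1 in young adults and 43.3 and 23.4 in aging adults, the last below noise. Probe set 173355_s_at read 1065, 837.3 and 874.0 in embryos and between -17.3 and -8.5 on all 5 adult arrays. Both probe sets were therefore high in embryos, and only 184162_at had a young adult signal. On 184162_at, aging adults were 27.7-fold below young adults (log2 fold change -4.79, SE 0.27, adjusted p = 0.00069, limma). The gene value, a median of both probe sets, passed the same test with an adjusted p of 0.00993, but averaged in a probe set at the floor; it did not pass when the 2 adult groups were fitted alone (adjusted p = 0.364) or when embryo replicate 1, 2 or 3 was left out (0.0755, 0.0693 and 0.0546). For embryos against young adults, 184162_at gave a 1.43-fold difference that did not pass (log2 fold change 0.51, SE 0.24, adjusted p = 0.118), and it passed with quantile normalization (log2 1.81, adjusted p = 0.00128) and without rescaling (2.08, adjusted p = 0.00072). Probe set 173355_s_at put embryos at least 9.99-fold above young adults (adjusted p = 3.91e-05). Embryos were 39.5-fold above aging adults on 184162_at (adjusted p = 2.74e-05) and at least 16.5-fold above them on 173355_s_at (adjusted p = 7.59e-05).

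The remaining furrow collagen gene, dpy-8 (C31H2.2, chromosome X), was below noise on all 8 arrays. Its readings were -1.5, 8.8 and -14.4 in embryos, 12.3, 25.6 and 8.1 in young adults and 8.0 and 10.6 in aging adults. The test called it lower in embryos than in young adults (adjusted p = 0.0295, limma), but as no reading rose above noise no fold is given. The furrow collagens thus had 3 measurable genes, with a common order of embryos above aging adults, and 1 gene with no usable signal.

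The annular collagen gene dpy-13 (F30B5.1, chromosome IV, beside the collagen gene col-34) had its highest readings in young adults. It read 3263, 3262 and 4286 in embryos, 8438, 6419 and 7729 in young adults and 1023 and 634.8 in aging adults, with no overlap between groups. Aging adults were 15.6-fold below young adults (log2 fold change -3.96, SE 0.24, adjusted p = 0.0008, n = 2 and 3, limma). Embryos were 2.52-fold above aging adults (log2 fold change 1.33, SE 0.24, adjusted p = 0.00467). Embryos were 6.19-fold below young adults on the main scale (log2 fold change -2.63, SE 0.22, adjusted p = 8.73e-05). The size of that last difference depended on the scale: the log2 change was -1.07 without rescaling (adjusted p = 0.0099) and -0.59 after quantile normalization, where it did not pass (adjusted p = 0.0651). Its only probe set, 172895_x_at, is of the class whose probes may match related sequences.

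The pair dpy-17 and sqt-3 had large measured differences between embryos and adults; they cannot be ranked against those of dpy-3, dpy-7 and probe set 173355_s_at of dpy-2, which are bounds. The gene dpy-17 (F54D8.1, chromosome III) read 9404, 9606 and 8675 in embryos, 56.2, 38 and 119.6 in young adults and 47.5 and 27.9 in aging adults, the last below noise. Embryos were 49.2-fold above young adults (log2 fold change 5.62, SE 0.39, adjusted p = 4.83e-05, n = 3 and 3, limma) and 144-fold above aging adults (log2 fold change 7.17, SE 0.44, adjusted p = 4.88e-05, n = 3 and 2). The intensities of the 2 adult groups overlapped, and the 2.93-fold lower normalized value of aging adults did not pass (log2 fold change -1.55, 95% interval -2.59 to -0.51, adjusted p = 0.0911, limma over genes). With young adult replicate 2 left out it passed (log2 fold change -1.93, adjusted p = 0.0274).

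The 2 probe sets of sqt-3 (F23H12.4, chromosome V) agreed on the change with adult age and disagreed on embryos against young adults. Probe set 174910_at read 7049, 6872 and 6604 in embryos, 140.3, 255.9 and 217.9 in young adults and 57.4 and 20.7 in aging adults, the last below noise. The pattern on 174910_at was close to that of dpy-17, with a high embryo level and a low adult one. Probe set 172820_x_at, like that of dpy-13 of the class whose probes may match related sequences, read 12036, 12740 and 14519 in embryos. It read 9859, 9360 and 9272 in young adults and 5759 and 4246 in aging adults. On each embryo array the reading of 172820_x_at was the highest of all 22548 probe sets, and saturation could not be checked from these files. Aging adults were 9.67-fold below young adults on 174910_at (log2 fold change -3.27, SE 0.39, adjusted p = 0.00481, limma) and 3.22-fold below them on 172820_x_at (log2 fold change -1.69, SE 0.20, adjusted p = 0.00473; 0.0883 with the 2 adult groups fitted alone).

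For sqt-3 in embryos against young adults, 174910_at was 11.7-fold higher in embryos (log2 fold change 3.54, SE 0.35, adjusted p = 0.000175, limma). Probe set 172820_x_at went the other way on the main scale, 2.15-fold lower in embryos (log2 fold change -1.1, SE 0.18, adjusted p = 0.00175), but 0.89 higher on the log2 scale after quantile normalization (adjusted p = 0.00173) and 0.46 higher without rescaling (adjusted p = 0.109). Its direction there is not settled by these arrays. Embryos were 113-fold above aging adults on 174910_at (adjusted p = 3.79e-05) and 1.5-fold above them on 172820_x_at (adjusted p = 0.0492). The latter call did not survive the loss of embryo replicate 1, 2 or 3 (adjusted p = 0.154, 0.116 and 0.135, limma), of aging adult replicate 1 or 2 (0.083 and 0.23), or of young adult replicate 2 (0.0521).

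**Figure D2:**
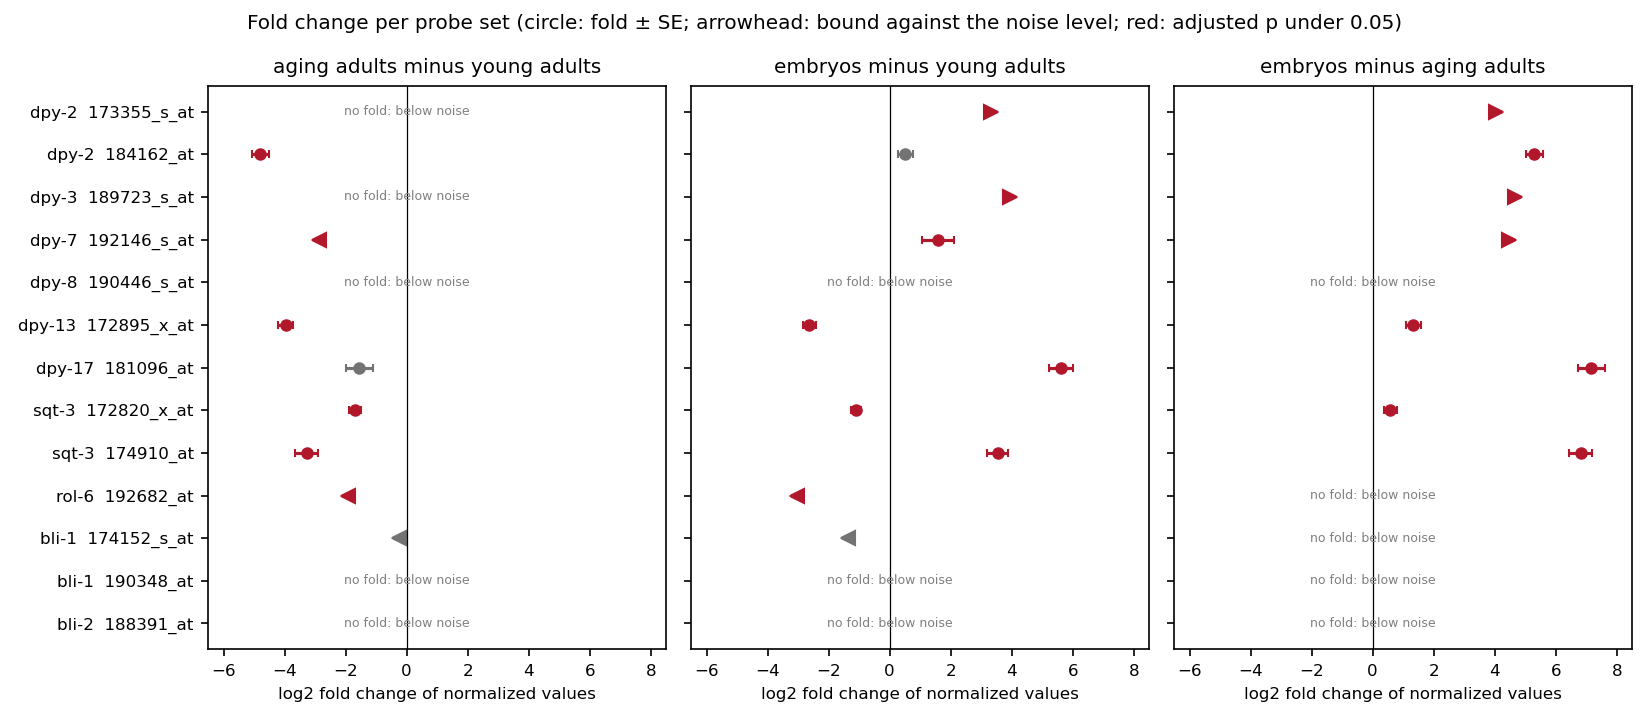
Log2 fold change of normalized values per probe set in the 3 comparisons (first group minus second). Circles are folds with their SE, arrowheads are bounds against the noise level and red marks an adjusted p under 0.05; the 2 probe sets of sqt-3 lie on opposite sides of 0 for embryos minus young adults, at 3.54 and -1.1.

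The gene rol-6 (T01B7.7, chromosome II) was above noise in young adults alone. It read 107.3, 48.8 and 67.5 there, 16.9, 6.3 and 21.2 in embryos and 7.8 and 2.6 in aging adults. Young adults were at least 8.19-fold above embryos (adjusted p = 0.0026, n = 3 and 3, limma) and at least 3.76-fold above aging adults (adjusted p = 0.0154, n = 3 and 2). Without aging adult replicate 2, the latter did not pass (adjusted p = 0.1, limma over probe sets). The bound of young adults over embryos depended on the scale: without rescaling it was at least 2.77-fold (adjusted p = 0.0247, limma). The young adult readings stood beside noise levels of 28.7, 35.0 and 30.1, so the lowest was close to the limit of measurement.

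The strut collagens gave almost no signal at any stage. For bli-1 (C09G5.6, chromosome II, beside the collagen gene col-80), probe set 174152_s_at read 58.4 on 1 young adult array, above noise, and 12.2 to 26.0 on the other 7, all below it. Its other probe set, 190348_at, read between -15.7 and 1.6. For bli-2 (F59E12.12, chromosome II) the readings ran from -56.7 to 12.2, all below noise. No comparison of bli-1 or bli-2 passed the test (adjusted p between 0.103 and 0.654, limma over genes), and changes under the noise level were not detectable.

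Placed in order by normalized value, dpy-2 (on 184162_at), dpy-7, dpy-17 and sqt-3 (on 174910_at) ran from embryos through young adults to aging adults. In that order, embryos and young adults of dpy-2 and young and aging adults of dpy-17 were the neighbours that did not differ by the test. The order of dpy-13 was young adults, embryos, aging adults, with every step past the test on the main scale. For rol-6 young adults came first, and for dpy-3 embryos, with the other 2 groups below noise. No member was highest in aging adults by a measurable amount.

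**Figure D3:**
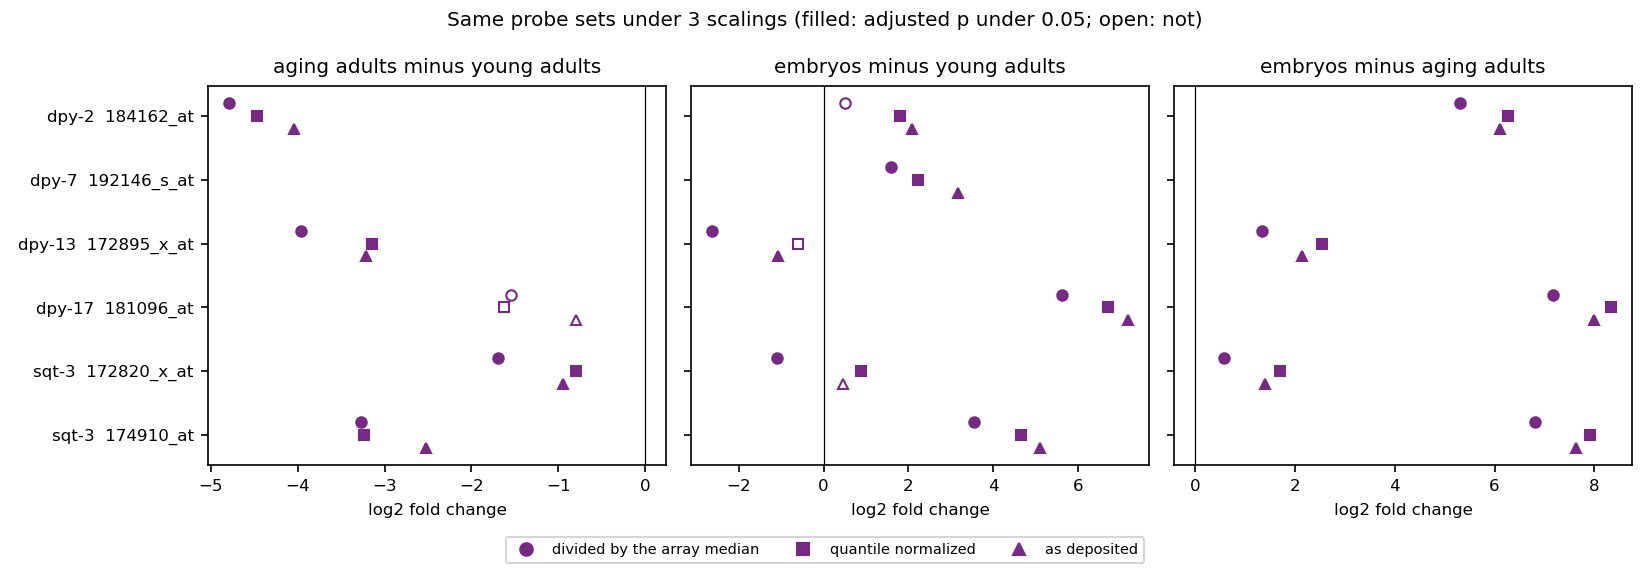
Log2 fold change of the probe sets with a measured fold under 3 scalings (array median, quantile normalization, as deposited); filled symbols passed at an adjusted p under 0.05. For aging minus young adults every symbol lies left of 0, whereas 172820_x_at of sqt-3 changes side for embryos minus young adults, from -1.1 to 0.89 and 0.46.

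Across the scalings, the lower values of aging adults kept their direction for dpy-2, dpy-13 and sqt-3. Without rescaling the log2 changes were -4.04 for dpy-2 on 184162_at (adjusted p = 0.00135), -3.21 for dpy-13 (adjusted p = 0.00188), and -2.53 and -0.94 for sqt-3 on 174910_at and 172820_x_at (adjusted p = 0.0161 and 0.0382, limma). The bounds without rescaling were at least 4.33-fold for dpy-7 and at least 2.24-fold for rol-6. Called genes over the whole table split differently: 38.2% of the calls were higher in aging adults on the main scale, 44.9% after quantile normalization and 89.3% without rescaling. Embryos against young adults split 41.9%, 49.1% and 75.4% in the same order, and embryos against aging adults 39.7%, 48.8% and 64.1%.

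Of 11 other listed collagen genes named for body-shape mutants, 9 were tested and 6 were measurable in adults; limma called 5 of those 6 lower in aging adults and 0 higher, and 7 of the 9 were lower with an unadjusted p under 0.05; 7.37% of all measurable genes were called lower. The remaining measurable gene, dpy-5, did not pass (adjusted p = 0.0691). The counts were also 5 and 0 after quantile normalization and without rescaling. The gene ram-2, named for male tail ray defects, was 7.87-fold lower in aging adults (adjusted p = 0.00445), and dpy-4 was 5.76-fold lower (182.6 ± 68.0 times the array median, SD, n = 3, against 30.2 ± 4.82, n = 2; adjusted p = 0.00828). The genes sqt-2 and rol-8 were at least 6.90-fold and 7.07-fold lower (adjusted p = 0.000332 and 0.0184). Leaving out aging adult replicate 2 ended the call of dpy-4 (adjusted p = 0.0675, limma) and leaving out young adult replicate 1 that of rol-8 (adjusted p = 0.0536). In embryos against young adults, 1 of 8 measurable genes was higher and 5 were lower, beside 33.3% and 35.4% of all measurable genes. The higher one was dpy-14, with 6670 to 7037 in embryos and nothing above noise in adults, at least 74.7-fold higher (adjusted p = 0.00937), whereas dpy-9 was at least 10.1-fold lower (adjusted p = 0.00726) and sqt-2 8.59-fold lower (adjusted p = 0.0041). Without rescaling the counts were 2 higher and 2 lower. The sizes of the lower genes depended on the scale as well. Deposited means of sqt-2 were 45.2 in embryos and 134.6 in young adults. For dpy-9 the young adult readings were 36.4 to 140.3, beside embryo noise levels of 24.4 to 27.7. Embryos against aging adults gave 4 higher and 0 lower of 7 (25.5% and 33.3% over all measurable genes), with ram-2 7.57-fold higher (adjusted p = 0.000528) and dpy-14 at least 124-fold higher (adjusted p = 0.00902, limma). The other called genes, sqt-2 and lon-3, passed only through aging readings set to the floor. With values raised to the noise level, their log2 changes were -0.31 and -0.42, so no fold is given for them.

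The adult-stage collagens, which are switched on at the last moult, were represented by col-19, 1 of the 3 listed genes with a probe set. It read 3175 to 5483 in young adults, 97.2 to 249.6 in aging adults and -1.1 to 12.9 in embryos. The 47.3-fold lower value of col-19 in aging adults did not pass in the fit of all 8 arrays (adjusted p = 0.286, limma). It passed with the adult arrays fitted alone (adjusted p = 0.0318) and, leaving out embryo replicate 2, with an adjusted p of 0.0126. Young adults were at least 508-fold above embryos (adjusted p = 0.00282).

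Of the genes that process, fold and cross-link collagen, none passed between aging and young adults. Of 16 measurable genes (17 of 18 listed had a probe set), limma called 0 in either direction between aging and young adults; 4 higher genes and 0 lower ones reached an unadjusted p under 0.05. On unscaled intensities, 10 of the 16 passed as higher and 0 as lower. The protease gene dpy-31, whose product cuts SQT-3 and DPY-17, was 1.59-fold higher in aging adults without passing (log2 fold change 0.67, adjusted p = 0.111). In embryos against young adults 1 gene was higher and 6 were lower (7 and 6 after quantile normalization, 9 and 3 without rescaling), where 33.3% and 35.4% of all measurable genes were. The lower ones included skpo-1, a peroxidase gene, at least 192-fold lower (18.5 to 23.9 against 1513 to 1974; adjusted p = 3.98e-07), mlt-7, the cuticle cross-linking peroxidase, lower by a log2 change of -2.62 with values raised to the noise level (adjusted p = 0.000289 in the test), and dpy-31, 6.40-fold lower (adjusted p = 5.64e-05). Against aging adults, embryos had 5 lower and 0 higher, among them tsp-15, a tetraspanin of the cross-linking oxidase complex, 4.50-fold lower (adjusted p = 0.000389).

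Of the moulting and apical matrix genes, 13 of 18 measurable ones were higher and 1 lower in embryos than in young adults, beside 33.3% and 35.4% of all measurable genes. Against aging adults 13 of 17 were higher and 3 lower (25.5% and 33.3% of all measurable genes); the lower ones were lrp-1, wrt-5 and nas-37. The counts against young adults were 13 and 2 after quantile normalization and 14 and 1 without rescaling. Several of these genes had adult readings below noise, so their log2 changes are given with values raised to the noise level and their adjusted p from the test. The protease inhibitor gene mlt-11, with 1 of its 4 probe sets below noise on every array, was 3.24 higher in embryos than in young adults on that log2 scale (adjusted p = 1.45e-05). The genes noah-1 and noah-2, which encode proteins of the embryonic sheath, were 3.96 and 4.68 higher (adjusted p = 0.0247 and 0.000212), and acn-1, a gene needed for moulting, was 3.24 higher (adjusted p = 0.0324). With embryo replicate 1, 2 or 3 left out, noah-1 (adjusted p = 0.0664, 0.0659 and 0.061) and acn-1 (0.0803, 0.0802 and 0.0807) no longer passed. Between aging and young adults limma called 0 of 8 in either direction, and 3 lower genes and 0 higher ones had an unadjusted p under 0.05.

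Among epidermal transcription factors and timing genes, 6 of 13 measurable genes were higher and 2 lower in embryos than in young adults, beside 33.3% and 35.4% of all measurable genes. The GATA factor elt-1, which specifies epidermal fate, was at least 12.1-fold higher (adjusted p = 6.26e-05), the nuclear receptor gene nhr-25 higher by a log2 change of 2.19 with values raised to the noise level (adjusted p = 9.41e-05 in the test) and lin-26 3.41-fold higher (adjusted p = 0.000837). The factor lin-29, which drives the switch to the adult epidermis, was at least 13.4-fold lower in embryos (adjusted p = 4.95e-05). Between aging and young adults 0 of 9 passed in either direction by limma (1 higher and 1 lower at an unadjusted p under 0.05). Epidermis markers that are not collagens (7 genes) had summed intensities of 4314 to 4733 on embryo arrays, of 876 to 1032 on aging adult arrays and of 632 to 711 on young adult arrays. In embryos 6 of the 7 were above noise on all arrays, and in each adult group 3 of 7 were; che-14 was above noise on no adult array, nhr-23 on no young adult array, wrt-2 on no aging adult array and grd-10 on no embryo or aging adult array. Those intensity sums counted all 7 genes, with negative readings taken as 0. A sum of normalized values was 72.5 to 75.0, 25.7 to 27.5 and 26.9 to 35.7 in the same order. It counted only the genes above noise on each array, with values raised to the noise level and divided by the array median. Both sums of epidermal markers were thus highest in embryos and differed less between the adult groups. The members dpy-3, dpy-7 and dpy-17 were also highest in embryos, but dpy-13 and rol-6 were highest in young adults. The marker elt-3 went against the sum on the main scale. It was 1.91-fold lower in embryos than in young adults (adjusted p = 0.00262, limma) and 1.57-fold lower than in aging adults (adjusted p = 0.0261). The part of the marker sum in the results was not tested.

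Loss of furrow collagens is known to switch on osmolyte, antimicrobial and detoxification genes in the epidermis. Of 8 measurable genes of that response, 0 passed between aging and young adults by limma (3 higher and 0 lower at an unadjusted p under 0.05). In embryos, 5 of 8 were below young adults and 7 of 8 below aging adults, with 0 higher, beside 35.4% and 33.3% of all measurable genes called lower; without rescaling these were 2 and 1, and 1 gene was above young adults. The glutathione transferase gene gst-4 was 18.8-fold lower in embryos than in young adults (adjusted p = 0.00272), and the antimicrobial peptide gene cnc-2 at least 97.5-fold lower in embryos than in aging adults (adjusted p = 0.00566).

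**Figure D4:**
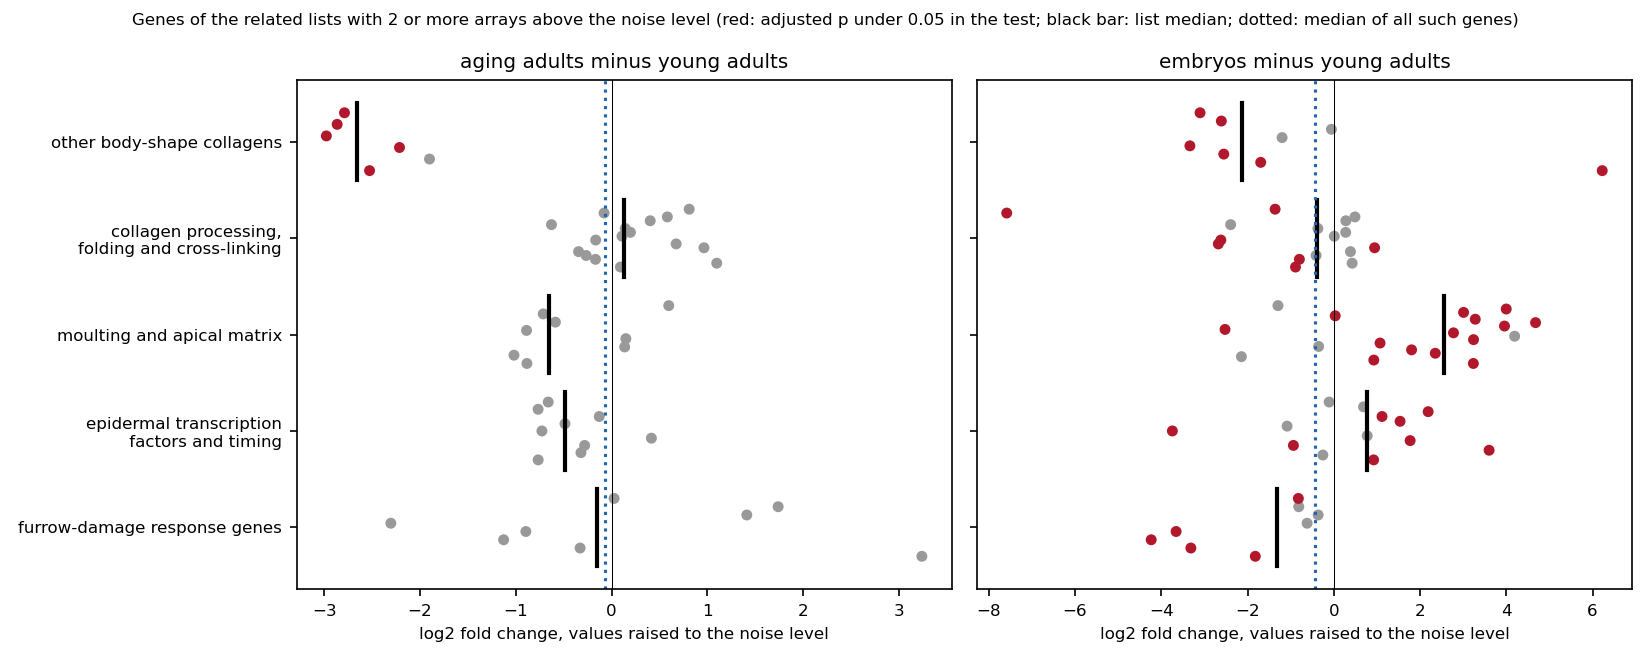
Log2 fold change of the measurable genes of 5 related lists, with values raised to the noise level; each point is 1 gene, red marks an adjusted p under 0.05 in the test, the bar is the list median and the dotted line the median of all measurable genes (-0.07 left, -0.44 right). For aging minus young adults red points appear only among the other body-shape collagens (5 of 6), and for embryos minus young adults the moulting and apical matrix genes have a median of 2.56.

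Likeness to other genes was described by Pearson's r of log2 values over the 8 arrays, which fall into 3 stages and share their scaling, among 11270 genes with 2 or more arrays above noise. The genes most like dpy-13 were the collagen genes col-125, col-93 and col-98 (r = 0.998, 0.994 and 0.993). With values raised to the noise level, col-125 and col-93 again came first and col-160 (r = 0.991) took the third place. The only probe set of dpy-13 is of the class whose probes may match related sequences, and whether signal was shared with these collagen genes was not tested. Most like the mean of dpy-17 and sqt-3 was mec-15 (r = 0.995, and 0.996 with values raised to the noise level), while C29A12.1 and EEED8.2 (r = 0.995 and 0.994) gave way to T14B4.19 and F56D2.3 (r = 0.994 and 0.993) on raised values. For the furrow collagens, rol-6 and the strut collagens no such genes are named, because many of their own readings were below noise; for the furrow collagens and rol-6, the 3 leading genes were all replaced when values were raised to it.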

How the data were processed

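Total RNA of each pool (1 ug) was labelled with a 3' amplification kit, and 15 ug of cRNA was hybridized for 16 hours to 1 Affymetrix array. Per the labels, the authors read the scans with GCOS 1.2.0.037; the methods name Rosetta Resolver as the next step. The deposited intensities are linear and background-subtracted, and negative values were kept. A second deposited file holds the authors' own comparisons (fold changes and p-values) and was not used.

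Scaling took 2 of the study's GeneSpring steps, a floor of 0.01 on intensities and division by the median of the array; its division by the mean of the young values was left out, and log2 was then taken. Probe sets annotated to 1 gene were used (20766; 887 name several genes and 895 none), with the median per gene. All 8 arrays were fitted together in limma 3.58.1 (R 4.3.3) with a variance trend and no covariate, in place of Resolver, whose p-values could not be recomputed here. Each probe set was also fitted alone, over all probe sets, for the folds; this was added after the data were seen. The code was tested on simulated data. The number of arrays limits the precision, and the labels give no batch.

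The members and the lists were chosen with earlier results of these data known. Named genes were all members, up to 4 genes of each list per comparison with the largest changes past the test, and the 3 genes most like each role group, left out where the group's own readings were often below noise. The genes dpy-5, elt-3, lon-3, the lower moulting genes lrp-1, wrt-5 and nas-37, dpy-31 between adult groups, col-19 between adult groups and sqt-2 between embryos and aging adults were named after their values were seen. Gene symbols and chromosomes of all 10 members matched RefSeq (WBcel235); no sequences are given. The alternatives were quantile normalization, no rescaling, a pseudocount of 0.1, raising values to the noise level, 2 filters on dim genes, fitting only the 2 groups compared, a replicate block, other rules for probe sets, no variance trend, an unadjusted p under 0.001, and leaving out each array.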

Additional observations from a re-analysis of the deposited data

How the results depend on the processing

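The count of members lower in aging than in young adults (5 of 10) was 10 with values raised to the noise level and 3 of 6 testable members with probe sets ending in _s_at or _x_at left out; leaving out each array in turn gave 4 to 6 lower and 0 to 0 higher. Members higher in embryos than in young adults (5) numbered 3 with the highest probe set of each gene, 3 at an unadjusted p under 0.001 and 2 of 6 without _s_at and _x_at probe sets, and 4 to 5 with an array left out. Members lower in embryos than in young adults (3) numbered 5 with values raised to noise and 1 of 6 without _s_at and _x_at probe sets, and 2 to 3 with an array left out. For embryos against aging adults, the 6 higher became 3 of 6 without _s_at and _x_at probe sets and 6 to 6 with an array left out, and the 0 lower became 4 with values raised to noise and 0 to 1 with an array left out (1 without embryo replicate 2). Raising to noise gives members with no signal the scaled noise level, 0.39 to 0.439 for embryos, 0.911 to 0.917 for aging adults and 1.37 to 1.68 for young adults (times the median), so counts under it include members below noise. For sqt-3 in embryos against young adults the log2 change turned to -1.1 with its highest probe set and with 172820_x_at alone.

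Whether the replicate numbers pair the arrays is not given by the labels. Deviations of same-numbered arrays from their group means correlated between -0.0127 and 0.00407. These were taken over all genes, including readings set to the floor, so they cannot decide whether pools were paired. With the replicate block, 510 genes in place of 1229 were called between adult groups (484 with those groups fitted alone), 8649 in place of 9186 for embryos against young adults and 6395 in place of 7696 for embryos against aging adults. Among the members the block left dpy-2 between adult groups without a call (adjusted p = 0.0554, limma) and changed no other call of a member gene; of single probe sets, 184162_at of dpy-2 gained its call for embryos against young adults (adjusted p = 0.0326) and 172820_x_at of sqt-3 lost its call for embryos against aging adults (adjusted p = 0.116). Leaving out an aging adult array leaves 1 in that group, which is then assumed to vary like the other groups. With an array left out, 143 member fold changes kept direction and call, 8 lost the call and 1 gained it; under the other settings 217 kept both, 12 lost the call, 1 gained it and 2 changed sign, those of sqt-3 above. Intensities near the noise level limit dpy-8, bli-1, bli-2 and rol-6.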
